A study of Mus musculus with 4 samples.

Results

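Cadherins are membrane proteins that hold neighbouring cells together, and catenins link their cytoplasmic tails to the actin cytoskeleton. The 42 genes described here are those among 33641 gene rows whose symbol is a numbered cadherin (Cdh), a numbered protocadherin (Pcdh) or a catenin (Ctnna, Ctnnal1, Ctnnb1, Ctnnd); they comprise 23 cadherins, 12 protocadherins and 7 catenins. Clustered protocadherins, desmosomal cadherins and the large FAT-type cadherins carry other symbols and are not among them. The rule that picks them uses the symbol alone, though it was proposed with earlier results of these data known. RNA was sequenced from primary fibroblasts isolated from the hearts of wild-type C57BL/6J mice aged 12 weeks. Of 4 libraries, 2 came from cells given vehicle control and 2 from cells given 10 ng/ml TGFbeta, a growth factor that drives fibroblasts to become myofibroblasts. Cells of both groups had taken up 4-thiouridine at 20 and 4 h before crosslinking with light of 368 nm. The study design speaks of RNA eluted with HuR, an RNA-binding protein, whereas the sample labels speak of total RNA; the values are therefore given as levels in these libraries and not as binding.

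Classical cadherins bind a cadherin of the next cell through their outer domains and, through their tail, beta-catenin and a delta-type catenin. Beta-catenin in turn holds alpha-catenin, which reaches actin, and beta-catenin freed from the junction can enter the nucleus as the effector of Wnt signalling. Fibroblasts typically use N-cadherin (Cdh2) and cadherin-11 (Cdh11), the latter known for its part in fibroblast contacts and fibrosis, while E-cadherin (Cdh1) marks epithelia and VE-cadherin (Cdh5) endothelium. Protocadherins share the outer cadherin repeats but lack the catenin-binding tail.

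Levels are TPM, a transcript abundance corrected for gene length and scaled to 1 fixed total per library, so they can be set side by side between genes. Changes are differences of group means on the log2(TPM + 1) scale, positive where TGFbeta was higher, which understates the change of low genes. Of the 42 genes, 23 had a mean of at least 1 TPM over the 4 libraries and entered the limma fit across 15815 genes. With TGFbeta 2 of these 23 rose, both of them cadherins of low level: Cdh10, from 1.11 to 3.79 TPM, and Cdh3, from 2.17 to 5.34 TPM. That is 8.70% of the tested members, where 1.54% of all tested genes were called higher. None fell (0 of 23 by limma, 4 at an unadjusted p under 0.05), where 4.38% of all tested genes were called lower; calls in either direction came to 5.92% of tested genes. At an unadjusted p under 0.05, 6 members were higher (26.1%) and 4 lower (17.4%), against 5.98% and 18.5% of all tested genes. These member counts depended on the scaling of the libraries. They were 8 higher and 1 lower after quantile normalization and also after median scaling. In those fits 3502 and 3490 of the 15815 tested genes had such a p in either direction. The abundant genes of the junction, Cdh2, Cdh11, Ctnnb1, Ctnnd1 and Ctnna1, did not pass the test. Every call in the comparison, for members and other genes alike, was lost without vehicle 1, without vehicle 2 and when every gene above 0 was tested. Whether the libraries were separate cultures or animals is not given, so the p-values measure only the spread between these samples.

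In 15 of the 23 tested members the libraries of the 2 groups did not overlap, 8 with both TGFbeta libraries above both vehicle libraries (34.8%) and 7 with both below (30.4%). Over all tested genes 15.5% were separated upward, 39.8% downward and 55.3% in either direction, against 65.2% of members. The median log2 change of the 23 members was -0.06, against -0.13 for all tested genes. The levels plot and the plot of changes show all 23. The level of a gene in such bulk libraries cannot tell fewer cells of a type from less RNA per cell.

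**Figure D1:**
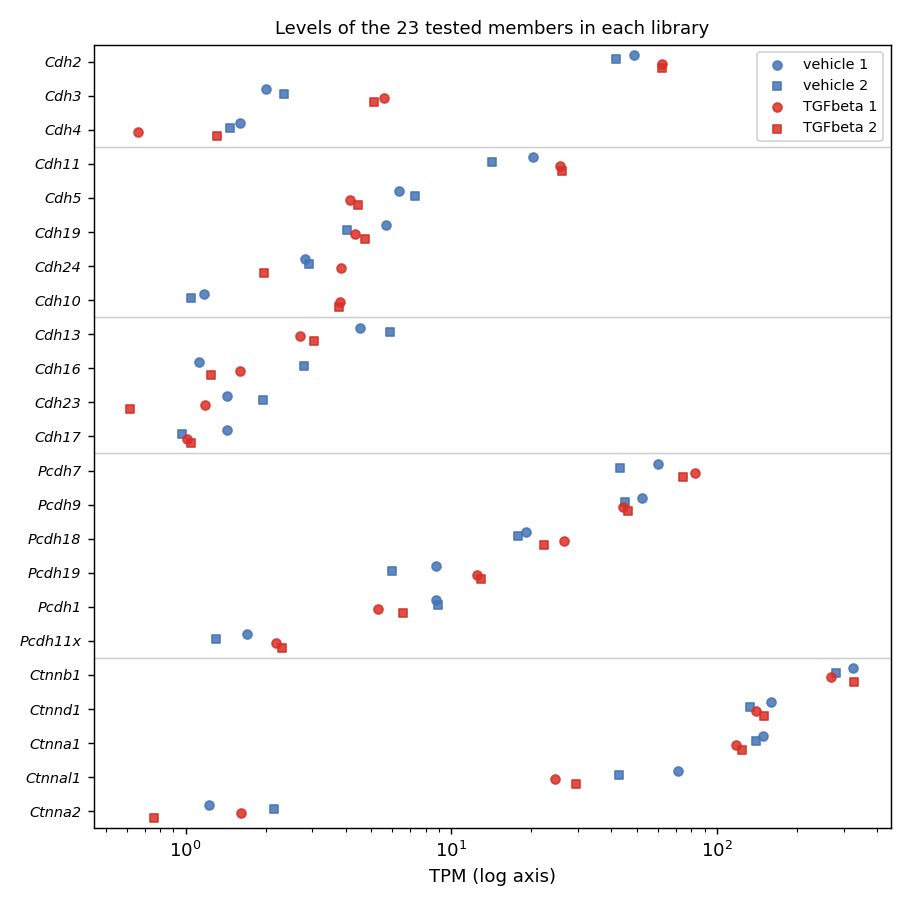
TPM on a log axis of the 23 tested members, by role from top to bottom (type I cadherins, type II cadherins, other cadherins, protocadherins, catenins). Each point is 1 library, with circles for replicate 1, squares for replicate 2, blue for vehicle and red for TGFbeta. Both red points of Cdh3 and Cdh10 lie well to the right of the blue ones, while those of Ctnnb1 and Ctnnd1 lie among them.

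Among type I classical cadherins, which include the cadherins of epithelia, nerve and muscle, 1 of 3 tested genes rose and 0 fell (limma; at an unadjusted p under 0.05, 2 higher and 0 lower). Over all tested genes limma called 1.54% higher and 4.38% lower, and 5.98% were higher and 18.5% lower at the unadjusted level. These shares also stand beside the counts of each group of members below, all of them small groups. Cdh2 was the most abundant cadherin of the libraries. With vehicle it stood at 48.8 and 41.6 TPM, and with TGFbeta at 62.0 and 62.1 TPM. The TGFbeta libraries were higher than both vehicle libraries and nearly equal to each other, yet the log2 change of 0.45 (SE 0.14; 95% interval 0.11 to 0.80) did not pass once adjusted over all genes (limma adjusted p = 0.120). Cardiomyocytes also use Cdh2 at their intercalated discs; of 8 cardiomyocyte markers 3 were above 1 TPM in every library, and the list summed to 70.1 and 112 TPM with vehicle and 51.6 and 53.9 TPM with TGFbeta, most of it Tnnt2. Their part in the Cdh2 level was not tested.

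Cdh3 encodes P-cadherin, an adhesion protein best known from placenta and basal epithelia (ENSMUSG00000061048.8, GRCm38 chr8:106510891-106557297, plus strand). Vehicle cells gave 2.00 and 2.34 TPM, TGFbeta cells 5.58 and 5.10 TPM. The groups were apart by more than the spread within either, and the TGFbeta mean of 5.34 ± 0.341 TPM was 2.46-fold the vehicle mean of 2.17 ± 0.237 TPM (SD, n = 2 libraries each). The log2 change of Cdh3 was 1.00 (SE 0.20; limma adjusted p = 0.0449). Leaving out TGFbeta 1 (limma adjusted p = 0.144) or TGFbeta 2 (0.132) ended its call as well, with a log2 change between 0.93 and 1.08 whichever library was left out. Cdh1, which encodes E-cadherin and lies beside Cdh3 (GRCm38 chr8:106603351-106670246, plus strand), had 0.104 and 0.0651 TPM with vehicle, 0 in TGFbeta 1 and 0.0351 TPM in TGFbeta 2, and was not tested. Of 8 epithelial and mesothelial markers 2, Upk3b and Krt19, were above 1 TPM in every library, Epcam and Krt8 stood at or near 0, and the list summed to 12.8 and 15.8 TPM with vehicle and 9.78 and 10.3 TPM with TGFbeta. Upk3b gave most of this sum, at 6.77 to 12.1 TPM. The part of such cells in the Cdh3 level was not tested.

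Cdh4, which encodes the retinal or R-cadherin, had 1.61 and 1.47 TPM with vehicle and 0.660 and 1.32 TPM with TGFbeta (log2 change -0.37, SE 0.26, limma adjusted p = 0.435; -0.13 without TGFbeta 1). Cdh15, the M-cadherin gene of muscle precursors, lay between 0.0405 and 0.280 TPM in the 4 libraries and was not tested.

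Type II cadherins differ from type I in their outer adhesive surface. Of their 13 genes 5 were tested, of which 1 rose and 0 fell (limma; at an unadjusted p under 0.05, 2 higher and 1 lower). The gene that rose was Cdh10, a type II cadherin known chiefly from brain (ENSMUSG00000022321.15, GRCm38 chr15:18818947-19014236, plus strand). Vehicle cells gave 1.17 and 1.05 TPM of Cdh10, TGFbeta cells 3.81 and 3.76 TPM. The gap between the groups was far wider than that between replicates, and the ratio of means was 3.41. The log2 change of Cdh10 was 1.18 (SE 0.21; limma adjusted p = 0.0337), the highest among the members. Leaving out TGFbeta 1 (limma adjusted p = 0.106) or TGFbeta 2 (0.0999) also ended its call, while its log2 change stayed between 1.14 and 1.23 whichever library was left out.

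Cdh10 lies in a row of type II cadherin genes on chromosome 15 with Cdh6, Cdh9, Cdh12 and Cdh18, and none of these was tested. Cdh18 reached 0.294 TPM in TGFbeta 2 and was at most 0.0479 TPM elsewhere, and Cdh6, Cdh9 and Cdh12 were listed at 0 in 3 of the 4 libraries each. The promoter of Cdh10 is printed because this gene had the highest change, next to that of Ctnnal1, the member with the lowest. Both windows are the 250 bases before the start of transcription in RefSeq (GRCm38.p6, gene strand), for Cdh10 chr15:18820079-18820328 and for Ctnnal1 chr4:56865212-56865461. The Cdh10 window lies inside the GENCODE M21 gene given above, which starts upstream of the RefSeq start, so it does not cover that annotation's start. The Ctnnal1 window lies upstream of the GENCODE M21 gene. The bases checked after its RefSeq start were not found in a GENCODE transcript of Ctnnal1, while those of Cdh10 were found in one of Cdh10. Capitals mark CAGAC or its reverse complement GTCTG, the core letters bound by Smad proteins. Another motif was searched on both strands, CACCTG or CAGGTG, an E-box bound by Snail and Zeb repressors. The first occurs in 42.2% and the second in 17.2% of 32851 RefSeq promoter windows of this length.
Cdh10: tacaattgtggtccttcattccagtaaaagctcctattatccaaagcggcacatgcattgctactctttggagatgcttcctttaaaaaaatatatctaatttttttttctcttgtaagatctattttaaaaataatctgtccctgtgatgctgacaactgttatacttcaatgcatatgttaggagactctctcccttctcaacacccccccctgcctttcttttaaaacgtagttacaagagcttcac
Ctnnal1: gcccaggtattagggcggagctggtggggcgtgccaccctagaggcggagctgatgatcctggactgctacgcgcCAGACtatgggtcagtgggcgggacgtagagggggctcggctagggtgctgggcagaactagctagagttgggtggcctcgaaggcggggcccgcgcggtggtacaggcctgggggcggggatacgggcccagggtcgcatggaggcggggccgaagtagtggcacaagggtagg
The Cdh10 window holds 0 matches of either motif. The Ctnnal1 window holds 1 of CAGAC and 0 of the E-box. RefSeq windows were matched for 28 of the 42 members. A match or its absence describes these letters only.

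Cdh11 encodes cadherin-11 and was the next most abundant cadherin. It had 20.4 and 14.2 TPM with vehicle and 25.6 and 26.1 TPM with TGFbeta. Both TGFbeta libraries were above both vehicle libraries, but the vehicle libraries also differed from each other, and the log2 change of 0.58 (SE 0.20; 95% interval 0.09 to 1.06) did not pass (limma adjusted p = 0.149). Leaving out vehicle 1 gave the largest and leaving out vehicle 2 the smallest of its log2 changes over the libraries left out, 0.82 and 0.33.

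Cdh5, which encodes the endothelial VE-cadherin, went the other way in level. It had 6.36 and 7.29 TPM with vehicle and 4.17 and 4.45 TPM with TGFbeta (log2 change -0.56, SE 0.19, limma adjusted p = 0.140). The groups did not overlap and the test was not passed. All 8 endothelial markers were above 1 TPM in some library and 6 of them in every library, and the list summed to 71.0 and 74.1 TPM with vehicle and 63.0 and 58.4 TPM with TGFbeta. Among the 7 tested markers, 3 had both TGFbeta libraries below both vehicle libraries, 1 had both above and 3 overlapped. Over all tested genes 39.8% were separated downward and 15.5% upward. The 3 lower ones were Egfl7, Cldn5 and Tie1, and none of them was called. Egfl7 had 34.0 and 34.3 TPM with vehicle and 22.5 and 17.0 TPM with TGFbeta (limma adjusted p = 0.0599). Pecam1, a defining marker, had 5.97 and 7.35 TPM with vehicle and 5.93 and 6.07 TPM with TGFbeta, and its groups overlapped. Erg, a transcription factor of the list, went the other way and was its only called gene, at 2.23 and 1.76 TPM with vehicle and 7.55 and 8.21 TPM with TGFbeta. The part of endothelial cells in the Cdh5 level was not tested.

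Of the other tested type II genes, Cdh19, a cadherin of Schwann cell precursors, had 5.67 and 4.04 TPM with vehicle and 4.35 and 4.75 TPM with TGFbeta (log2 change -0.06, limma adjusted p = 0.892). Its groups overlapped, and its sign turned under median scaling. Schwann and neural markers were low throughout, with Sox10 between 0.261 and 0.540 TPM. Cdh24, a broadly expressed type II cadherin, had 2.80 and 2.92 TPM with vehicle against 3.85 and 1.97 TPM with TGFbeta. The TGFbeta libraries lay on either side of the vehicle pair, and the log2 change was -0.03 (SE 0.28, limma adjusted p = 0.967), which turned to 0.13 under median scaling. Cdh7, Cdh8, Cdh20 and Cdh22 reached at most 0.385 TPM in any library, and Cdh22 was above 0 only in vehicle 2, at 0.212 TPM.

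The remaining cadherins lack the classical tail. Of 5 such genes 4 were tested, and limma called 0 higher and 0 lower (at an unadjusted p under 0.05, 0 higher and 1 lower). Cdh13 encodes T-cadherin, which is held to the membrane by a lipid anchor and binds adiponectin. It had 4.52 and 5.88 TPM with vehicle and 2.71 and 3.03 TPM with TGFbeta. Both TGFbeta libraries were below both vehicle libraries, and the log2 change of -0.67 (SE 0.21; 95% interval -1.19 to -0.16) did not pass (limma adjusted p = 0.121). Cdh23, known from the tip links of sensory hair cells, had 1.43 and 1.95 TPM with vehicle and 1.18 and 0.619 TPM with TGFbeta (log2 change -0.51, limma adjusted p = 0.292; -0.30 without TGFbeta 2). Cdh16, a kidney cadherin, ranged from 1.13 to 2.80 TPM, both extremes being vehicle libraries. Cdh17, an intestinal and liver cadherin, ranged from 0.969 to 1.43 TPM in the same way. Cdh26 had 0.332 and 0.634 TPM with vehicle and 0.113 and 0.303 TPM with TGFbeta, and was not tested.

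**Figure D2:**
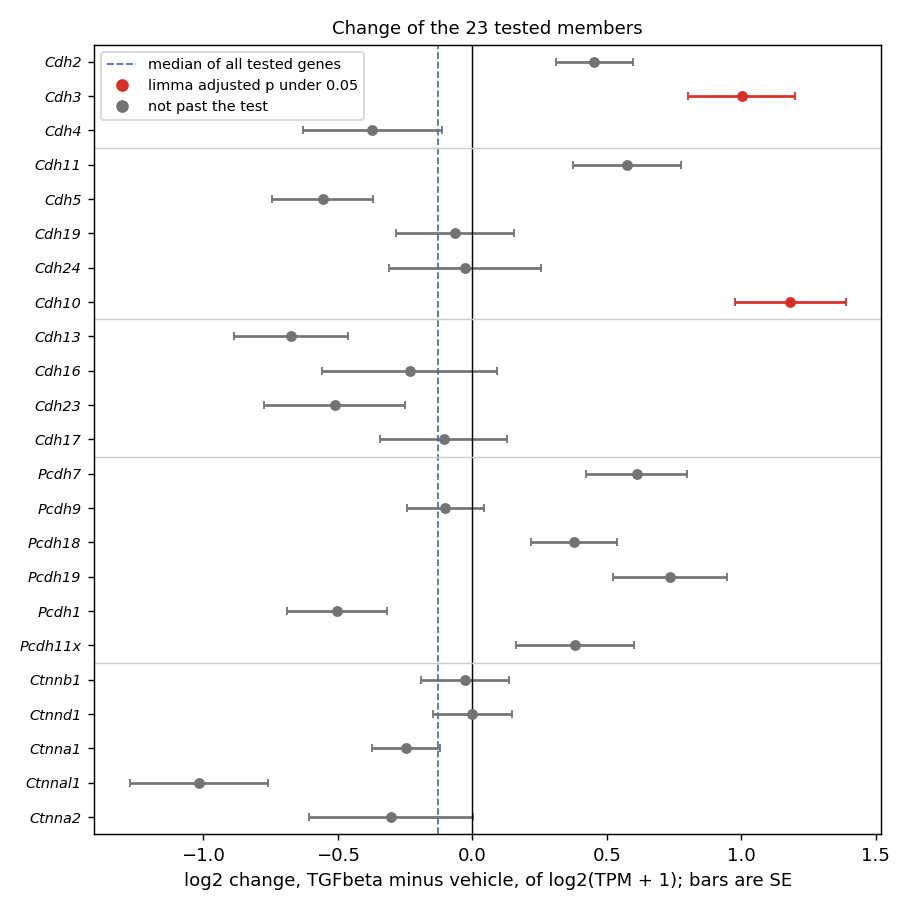
Log2 change (TGFbeta minus vehicle) of log2(TPM + 1) for the 23 tested members, in the order of the levels plot; bars are the SE of the limma fit over 2 libraries a group, and the dashed line is the median of all tested genes at -0.13. Cdh10 at 1.18 and Cdh3 at 1.00, in red, passed the test, and Ctnnal1 at -1.02 lies farthest to the left without passing.

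Protocadherins mediate weaker, selective contacts and are studied mostly in the nervous system. Of 12 genes 6 were tested, all 6 above 1 TPM in every library, and limma called 0 higher and 0 lower (at an unadjusted p under 0.05, 2 higher and 1 lower). Pcdh7 was the most abundant. It had 60.3 and 43.3 TPM with vehicle and 82.7 and 74.8 TPM with TGFbeta. The TGFbeta libraries were the higher ones, and the log2 change of 0.61 (SE 0.19; 95% interval 0.16 to 1.07) did not pass (limma adjusted p = 0.115). It was 0.85 without vehicle 1 and 0.38 without vehicle 2. Pcdh19, a delta-type protocadherin on the X chromosome that can pair with N-cadherin, had 8.74 and 6.00 TPM with vehicle and 12.5 and 12.98 TPM with TGFbeta. Again the groups were apart, with a log2 change of 0.74 (SE 0.21, limma adjusted p = 0.102).

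Pcdh18 had 19.1 and 17.8 TPM with vehicle and 26.6 and 22.2 TPM with TGFbeta (log2 change 0.38, limma adjusted p = 0.217). Pcdh11x had 1.70 and 1.30 TPM with vehicle and 2.19 and 2.30 TPM with TGFbeta (log2 change 0.38, limma adjusted p = 0.347). In 4 of the 6 tested protocadherins both TGFbeta libraries were above both vehicle libraries, where 15.5% of all tested genes were separated this way. For none of the 4 did the difference pass. Pcdh1, an airway epithelial protocadherin, was the only tested one with both TGFbeta libraries below both vehicle libraries. It had 8.77 and 8.87 TPM with vehicle and 5.32 and 6.60 TPM with TGFbeta (log2 change -0.50, SE 0.19, limma adjusted p = 0.171). Pcdh9 overlapped between the groups, at 52.3 and 45.2 TPM with vehicle and 44.3 and 46.3 TPM with TGFbeta (log2 change -0.10, turning to 0.05 under median scaling). The ratio of Pcdh7 to Pcdh9 within a library was 1.15 and 0.958 with vehicle and 1.87 and 1.62 with TGFbeta, a ratio that scaling of a library cannot alter. Of the untested ones, Pcdh10 lay between 0.468 and 0.708 TPM, the endothelial Pcdh12 between 0.242 and 0.772 TPM, Pcdh15 between 0.182 and 0.302 TPM and Pcdh17 between 0.174 and 0.299 TPM. Pcdh8 and Pcdh20 were highest in TGFbeta 2, at 0.344 and 0.244 TPM.

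Catenins were the most abundant of the 3 families. Of 7 genes 5 were tested, and limma called 0 higher and 0 lower (at an unadjusted p under 0.05, 0 higher and 1 lower). Ctnnb1 encodes beta-catenin (ENSMUSG00000006932.17, GRCm38 chr9:120929216-120960507, plus strand). It had 326 and 281 TPM with vehicle and 268 and 329 TPM with TGFbeta. The groups overlapped fully, and the log2 change was -0.03 (SE 0.16; 95% interval -0.42 to 0.37; limma adjusted p = 0.943). Ctnnd1, the delta-type catenin that keeps cadherins at the cell surface, had 160 and 133 TPM with vehicle and 141 and 151 TPM with TGFbeta. It overlapped as well, with a log2 change of -0.00056 (SE 0.15; 95% interval -0.36 to 0.36). These intervals limit, for the mean of these libraries, how large a change could have been missed; under median scaling the changes were 0.13 for Ctnnb1 and 0.15 for Ctnnd1.

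Ctnna1, the alpha-catenin that bridges to actin, had 149 and 140 TPM with vehicle and 118 and 125 TPM with TGFbeta. Its TGFbeta libraries were the lower ones by little, with a log2 change of -0.25 (SE 0.13, limma adjusted p = 0.296) that was -0.09 under median scaling. Ctnnal1 encodes alpha-catulin, a relative of alpha-catenin (ENSMUSG00000038816.14, GRCm38 chr4:56810935-56865188, minus strand). It had 71.6 and 42.6 TPM with vehicle and 24.5 and 29.4 TPM with TGFbeta. Both TGFbeta libraries were well below both vehicle libraries, which themselves lay far apart, and the vehicle mean was 2.12-fold the TGFbeta mean. The log2 change of Ctnnal1 was -1.02 (SE 0.26; 95% interval -1.64 to -0.39) and did not pass (limma adjusted p = 0.0763). It passed when only genes with a mean of at least 5 TPM were tested (limma adjusted p = 0.0300), and the change ran from -0.65 without vehicle 1 to -1.38 without vehicle 2.

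The neural or tissue-restricted catenins were low. Ctnna2, the alpha-catenin of neurons, had 1.22 and 2.14 TPM with vehicle and 1.61 and 0.760 TPM with TGFbeta (log2 change -0.30, limma adjusted p = 0.600; -0.05 without vehicle 2 and -0.02 without TGFbeta 2). Ctnna3, the alpha-catenin of heart muscle, lay between 0.112 and 0.444 TPM. The cardiomyocyte markers beside it ranged widely, from Myh6 at 0 to 0.394 TPM to Tnnt2 at 34.6 to 81.4 TPM. Ctnnd2, a delta-catenin of neurons, fell just short of the filter with a mean of 0.979 TPM, at 0.797 and 0.629 TPM with vehicle and 1.41 and 1.08 TPM with TGFbeta.

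The make-up of each family was then described as shares of its summed TPM. The cadherins summed to 98.4 and 87.9 TPM with vehicle and to 117 and 117 TPM with TGFbeta. Cdh2 took 48.4% ± 1.63 of this sum with vehicle and 53.0% ± 0.160 with TGFbeta (SD, n = 2 libraries each). Cdh11 took 18.4% ± 3.23 with vehicle and 22.1% ± 0.340 with TGFbeta. Cdh3 and Cdh10 together took 3.23% and 3.85% with vehicle and 8.005% and 7.58% with TGFbeta, so the genes that rose remained a small part of cadherin TPM in these libraries. Cdh5 took 6.46% and 8.30% with vehicle and 3.56% and 3.81% with TGFbeta. Among catenins, Ctnnb1, Ctnnd1 and Ctnna1 made up between 89.6% and 95.1% of the sum in the 4 libraries. The TPM of Ctnnb1 was 3.64 and 3.71 times the summed TPM of type I and II cadherins with vehicle and 2.42 and 2.97 times with TGFbeta. No test was made of these shares, since an exact permutation test of 2 against 2 libraries cannot give a p below 0.333.

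**Figure D3:**
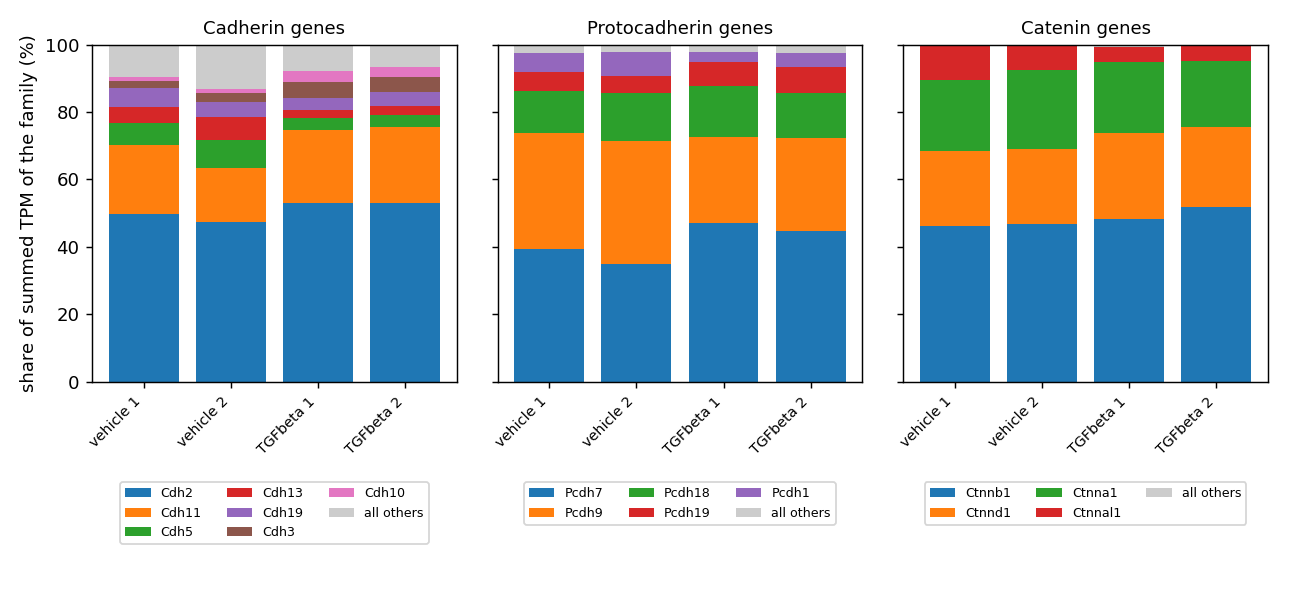
Share of each family's summed TPM (%, stacked bars from 0 to 100) in each library for cadherins, protocadherins and catenins. Members without a colour of their own are pooled in grey. Among cadherins the grey includes Cdh24, whose mean of 2.89 TPM over the libraries was above that of Cdh10 (2.45 TPM), which has a colour. Cdh2 holds 47.3% to 53.1% of cadherin TPM in the 4 libraries, and Ctnnal1 shrinks from 10.1% and 7.12% of catenin TPM with vehicle to 4.42% and 4.62% with TGFbeta.

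Genes that work with cadherins and catenins were read from lists of names. Over all tested genes, 5.98% were higher and 18.5% lower at an unadjusted p under 0.05, and the median log2 change was -0.13. Of 18 junction partners of catenins, 1 fell, 0 rose and 17 did not pass (limma; at an unadjusted p under 0.05, 2 higher and 5 lower), with a median log2 change of -0.16. The one that fell was Arvcf, a delta-type catenin close to Ctnnd1 that also binds cadherin tails. Arvcf had 165 and 124 TPM with vehicle and 66.5 and 54.0 TPM with TGFbeta (log2 change -1.24, SE 0.19, limma adjusted p = 0.0255). Its groups were widely apart, and the call also ended when TGFbeta 1 (limma adjusted p = 0.0650) or TGFbeta 2 (0.0883) was left out. None of the 5 desmosomal cadherin genes was tested; the highest level was that of Dsg2, named after its values were seen, at 1.35 TPM.

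Of 10 tested targets and feedback genes of beta-catenin, 2 rose, 2 fell and 6 did not pass, with a median log2 change of -0.08. At an unadjusted p under 0.05, 2 were higher and 3 lower. Over all tested genes limma called 5.92%, and 5.98% were higher and 18.5% lower at that unadjusted level. Nkd2, a feedback inhibitor of Wnt signalling, rose by 1.11 (limma adjusted p = 0.0142), from 39.3 and 35.5 TPM to 83.3 and 79.9 TPM. Myc, a growth regulator with many other inputs, rose by 1.06 (limma adjusted p = 0.0284), from 22.1 and 17.8 TPM to 46.2 and 39.1 TPM. Ccnd1, which encodes cyclin D1, fell by 1.70 (limma adjusted p = 0.0129), from 30.5 and 38.8 TPM to 8.70 and 11.3 TPM. Apcdd1, a membrane inhibitor of Wnt, fell by 1.18 (limma adjusted p = 0.0203), from 39.4 and 35.8 TPM to 17.7 and 14.4 TPM. The list thus went both ways. All 4 of these calls were lost without TGFbeta 1, and those of Nkd2, Myc and Apcdd1 without TGFbeta 2 as well (limma adjusted p = 0.0599 to 0.116), while Ccnd1 passed without TGFbeta 2 (0.0400). Axin2, the most widely used readout of beta-catenin and named after its values were seen, had 1.54 and 1.95 TPM with vehicle and 1.04 and 0.674 TPM with TGFbeta and did not pass. Nkd1, also named after its values were seen, had 26.4 and 25.1 TPM with vehicle and 16.9 and 16.2 TPM with TGFbeta. It did not pass either (limma adjusted p = 0.0655).

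In the other lists limma called 0 genes. The counts at an unadjusted p under 0.05 below stand beside 18.5% lower and 5.98% higher over all tested genes. Of 6 tested Snail, Zeb and Twist repressors, which repress Cdh1, 2 were lower at an unadjusted p under 0.05 and 0 higher, with Twist2 at -0.63 (limma adjusted p = 0.0878) and Snai2 at -0.47 farthest from 0. The 2 were Twist2 and Zeb2; the groups of Snai2 overlapped, and its change was -0.20 without vehicle 1 and -0.17 without TGFbeta 1. Of 9 genes of the beta-catenin destruction complex and its inhibitors 1 was lower at that level and 0 higher, with Amer1 at -0.66 and Btrc at -0.35. Of 9 genes for cadherin-cleaving proteases and gamma-secretase 2 were lower and 0 higher, with Adam15 at -0.54 (-0.34 without vehicle 2) and Psen2 at -0.44 (-0.26 without TGFbeta 2). Of 5 tested large atypical cadherins 1 was lower and 0 higher: Fat4 at -0.89 (limma adjusted p = 0.0543), which passed with a mean of at least 5 TPM (0.0357) and in a robust fit (0.0408), and Dchs2 at -0.49 (-0.25 without vehicle 1).

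Because the study concerns HuR, which binds AU-rich and U-rich stretches of 3′ untranslated regions, the longest annotated 3′ region of each tested member (GENCODE M21) was searched for ATTTA and for TTTTTTT, overlaps counted. ATTTA was found in 18 of 23 members (78.3%) and in 69.0% of 13651 tested genes with such an annotation, and TTTTTTT in 16 members (69.6%) and 43.2% of those genes. The median length was 1519 bases for members and 1161 for the tested genes. Cdh10 had 3 ATTTA in 554 bases, Pcdh19 14 in 5128 bases, Ctnnal1 2 in 1394 bases and Ctnnb1 0 in 990 bases. ATTTA per kilobase split the separated members by direction, though narrowly. The 8 with both TGFbeta libraries above both vehicle libraries ran from 1.575 (Cdh2) to 5.415 (Cdh10). The 7 with both below ran from 0 (Cdh23) to 1.435 (Ctnnal1). Cdh3, which rose, had 3 ATTTA in 1847 bases. Members whose groups overlapped spanned both ranges, with Ctnnb1 at 0 and Cdh19 at 4.373. Cdh19 and Pcdh9 had 6 ATTTA each in 1372 and 2102 bases. TTTTTTT counts did not split this way, with 1 in Cdh10 and 11 in Cdh5. The split was seen after the values were known and was not tested. ATTTA per kilobase was not compared over all tested genes separated upward or downward, so no background stands beside it. The 30-base window with the most ATTTA, in capitals, is shown for both genes that rose and for 2 others as examples, chosen after their values were seen: Cdh10 (chr15:19014177-19014206, plus strand), Cdh3 (chr8:106556131-106556160, plus strand) and Pcdh19 (chrX:133585134-133585163, minus strand), whose TGFbeta libraries were the higher ones, and Ctnnal1 (chr4:56811990-56812019, minus strand), whose TGFbeta libraries were the lower ones, all in GRCm38.
Cdh10: ttttatATTTAtatttttgtATTTAttttt
Cdh3: gctaggggagtggATTTAaaaagacttttt
Pcdh19: ttttcctctttATTTATTTAtttttctgca
Ctnnal1: ttttaagcggattATTTAcaacactaattt
The windows of Cdh10 and Pcdh19 hold 2 ATTTA each, overlapping by 1 base in Pcdh19, and those of Cdh3 and Ctnnal1 hold 1 each. No binding at these letters was measured here.

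Of the libraries as a whole, between 20945 and 21671 genes were above 0, and Pearson r of log2(TPM + 1) across tested genes, which are not independent replicates, was 0.980 for the vehicle pair, 0.976 for the TGFbeta pair and 0.956 to 0.965 across the groups. All 9 fibroblast markers, Col1a1, Col3a1 and Vim among them, were above 1 TPM in every library. Of these limma called 2 lower, Pdgfra and Tcf21, and 0 higher, where 4.38% of all tested genes were called lower and 1.54% higher. For Col1a1 and Col1a2 both TGFbeta libraries were above both vehicle libraries, for 5 markers both were below, and the other 2 overlapped. Over all tested genes 15.5% were separated upward and 39.8% downward. Pericyte and smooth muscle markers went both ways: of 5 tested, Mcam was called higher and Notch3 lower, 4 had a positive log2 change, and the median was 0.70. Their sum, 109 and 116 TPM with vehicle and 80.4 and 82.7 TPM with TGFbeta, was lower with TGFbeta because of Notch3, at 74.0 and 83.9 TPM against 21.1 and 17.4 TPM. Macrophage and leukocyte markers summed to 76.4 and 94.0 TPM with vehicle and to 61.1 and 66.3 TPM with TGFbeta. Lyz2 gave most of this sum, at 42.9 to 66.4 TPM. Of the 7 markers, all tested, limma called 0. In 3 both TGFbeta libraries were below both vehicle libraries, and 4 overlapped. In all 936 genes were called, 244 higher and 692 lower. Shifting the libraries to a common median moved the median log2 change of all genes from -0.13 to 0.03 and the calls to 421 higher and 401 lower, and left Cdh10 (1.34) and Cdh3 (1.16) called. Annotated exons of other genes overlap those of Ctnnb1 (Ulk4, Mir7090), Ctnna1 (Lrrtm2), Ctnnd1 (Gm28635), Pcdh7 (4932441J04Rik) and Pcdh19 (Gm26851), and none overlaps those of Cdh3, Cdh10 or Ctnnal1; whether reads were counted by strand is not given in the sources used here.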

How the data were processed

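The authors deposited TPM, as the file headers name the unit, for 33641 gene symbols per library. The aligner, quantifier and genome build behind them were not given in the sources used here. Since TPM carries no read numbers, the depth of the libraries is unknown and counting error could not be set beside the values. Levels were compared as log2(TPM + 1) where the mean over the 4 libraries reached 1 TPM, with limma 3.58.1 in R 4.3.3 (intensity trend, two-sided, treatment as the only term, Benjamini-Hochberg adjustment over 15815 genes, called at an adjusted p under 0.05). SE and 95% intervals are those of the fit, and n is 2 libraries a group. The procedure was tested on simulated data. Every tested member is named, with all called genes of each list or else its 2 with the largest change, and untested members from 0.2 TPM. The members and lists were chosen with earlier results of these data known. Positions and 3′ regions are from GENCODE M21 (GRCm38) and promoters from RefSeq (GRCm38.p6), matched by symbol; 42 members matched GENCODE. In all 13 alternatives were run.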

Additional observations from a re-analysis of the deposited data

How the results depend on the processing

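The 2 members called higher, Cdh10 and Cdh3, kept their call with pseudocounts of 0.1 and 5, after quantile normalization and median scaling, in the robust fit and without the trend. The count was 0 (limma) when every gene above 0 was tested (6 at an unadjusted p under 0.05), with the replicate number as a block (6; adjusted p = 0.0548 for Cdh10 and 0.0773 for Cdh3) and over the libraries left out in turn (0 to 0), and 0 with a mean of at least 5 TPM, where neither gene is tested. The count of members called lower was 1 with a mean of at least 5 TPM, Ctnnal1, and otherwise 0, also over the libraries left out (0 to 0). The groups share replicate numbers, but deviations of same-numbered libraries from their group means correlated at -0.05 across genes, so the numbers were not taken as a pairing; the block moved the genes called lower from 692 to 445. All genes called were 0 with every gene above 0 (0 higher, 0 lower; 4348 at an unadjusted p under 0.05), 602 without a trend (437 lower) and 0 to 203 with a library left out (higher 0 to 65, lower 0 to 138); without a vehicle library 3033 (vehicle 1) and 2407 (vehicle 2) had an unadjusted p under 0.05. Calls lower were 401 after quantile normalization and 401 after median scaling, with 333 and 421 higher. Pathway genes called were 5, 0 with every gene above 0 and 0 to 1 with a library left out.

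Signs of members near 0 turned. After quantile normalization the log2 change was 0.035 for Cdh17, 0.13 for Cdh19, 0.15 for Cdh24, 0.024 for Ctnnb1, 0.078 for Ctnnd1 and 0.025 for Pcdh9. After median scaling it was 0.049 for Cdh17, 0.091 for Cdh19, 0.13 for Cdh24, 0.13 for Ctnnb1, 0.15 for Ctnnd1 and 0.054 for Pcdh9. With a library left out it ran from -0.65 to 0.19 for Cdh16 (positive without vehicle 2), -0.26 to 0.045 for Cdh17, -0.27 to 0.14 for Cdh19 and -0.20 to 0.0014 for Pcdh9 (positive without vehicle 1), -0.38 to 0.33 for Cdh24 (positive without TGFbeta 2), and -0.17 to 0.12 for Ctnnb1 and -0.13 to 0.13 for Ctnnd1. The last pair was positive without vehicle 1 (0.080 and 0.13) and without TGFbeta 1 (0.12 and 0.049). The cause of these changes was not tested. Fits with a library left out take the spread of the single remaining library from the other group. The depth of the libraries is unknown, which limits members under 1 TPM most. The remaining alternatives moved no tested member across the threshold.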
